A study of Mus musculus with 40 samples.

Results

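These data concern mouse epiblast-like cells (EpiLCs) in which the lamin B receptor was disrupted on top of the loss of all lamins. They compare 4 RNA-seq libraries of quadruple-knockout (QKO) EpiLCs with 4 of lamin triple-knockout (TKO) EpiLCs, taken by their genotype and stage labels from the 40 libraries of the series. TKO cells lack Lmna, Lmnb1 and Lmnb2, and the QKO line is a single clone made from TKO mouse embryonic stem (mES) cells by CRISPR-Cas9 cutting of Lbr, so both groups carry the same lamin deletions and differ in Lbr and in clonal history. Also used are naive cells and EpiLCs of wild-type (WT) mES cells, 8 libraries each, and of LBR knockout (LBRKO) cells, 4 libraries each, the latter made from WT cells by cutting Lbr and so retaining lamins. In the genotyping of the QKO clone, 1 Lbr allele carries a frameshift deletion and the other an in-frame deletion. For the protein, the paper reports depletion by western blot and no detectable LBR by immunostaining. The TKO line was karyotyped as trisomic for chromosome 8, with part of its cells lacking the Y chromosome. The WT line, a littermate, was mostly of normal ploidy but held cells that lacked the Y chromosome, some of them also with trisomies. Naive mES cells, kept without serum or feeders in 2i and LIF, were moved for 48 h into N2B27 medium holding FGF at 20 ng/mL together with activin A at 12 ng/mL. Each library is 1 well of a line. In the fits of all 40 libraries the spread was estimated over the wells of the 8 groups together. The p-values of QKO against TKO therefore set 1 clone and 1 parental line against a spread between wells, not between clones.

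Lamins form a filament meshwork under the inner nuclear membrane, and LBR is an inner membrane protein that binds B-type lamins and HP1 and also has sterol reductase activity. Both tether heterochromatin marked by H3K9 methylation to the nuclear periphery. EpiLCs model the passage from naive to formative pluripotency, in which naive genes such as Esrrb are shut down and genes such as Fgf5 are switched on. The comparison asks what disrupting LBR changes in cells that leave the naive state without lamins.

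The Lbr guide was placed over a SacI site in exon 2, and the reference sequence of that site is shown because it is where the designed difference between the groups lies. On GRCm39, exon 2 of Lbr lies at chr1:181665943-181666121 on the minus strand, and the SacI site at chr1:181666049-181666054 is within its coding part. The stretch given here covers chr1:181666022-181666081, read 5′ to 3′ on the minus strand, with the SacI site in capitals.
Lbr exon 2: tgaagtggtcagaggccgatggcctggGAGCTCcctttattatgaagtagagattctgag
Gene counts do not show the deletions themselves.

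Lbr RNA was still present in QKO EpiLCs. Its level was 335, 378, 372 and 383 CPM (counts per M counts of the library, scaled by the trimmed mean of M-values) in the 4 TKO libraries and 252, 282, 291 and 282 CPM in the 4 QKO libraries. The groups did not overlap, and the log2 fold change was -0.41 ± 0.15 (SE; adjusted p = 0.03, edgeR's quasi-likelihood test), short of the 2-fold change required here. Of the lamin genes, Lmnb1 was at 0.8402 ± 0.273 CPM in TKO and 1.83 ± 0.194 CPM in QKO EpiLCs (SD, n = 4 each; log2 fold change 1.12 ± 0.14), against 516 CPM in WT EpiLCs. Without TKO replicate 3 the log2 fold change of Lmnb1 was 0.97. Lmnb2 was at 2.57 and 1.48 CPM against 95.9 CPM in WT. Lmna was at 7.75 and 8.38 CPM, near the 11.3 CPM of WT EpiLCs, so its counts do not show its deletion.

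Both groups carried the EpiLC programme. Fgf5, a growth factor of the formative epiblast, was at 158 ± 7.59 CPM in TKO and 180.4 ± 3.78 CPM in QKO EpiLCs and at 0.00913 and 0.00858 CPM in their naive cells. Pou3f1, a transcription factor switched on at the same step, was at 301 and 239 CPM in the EpiLCs and 0.898 and 0.4604 CPM in the naive cells. The naive factor Tfcp2l1 was at 14.98 and 22.1 CPM in TKO and QKO EpiLCs against 1961 and 2179 CPM in their naive cells. Of 15 formative and primed epiblast genes tested, 1 was higher and 0 were lower in QKO EpiLCs by edgeR, against 9.97% and 5.29% of all genes. DESeq2 called 1 of the 15. An unadjusted edgeR p under 0.05 was found for 10 of the 15, and for 11409 of all 23399 genes tested.

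Total gene counts were 22.6 to 33.2 M per TKO library and 25.3 to 33.0 M per QKO library. TKO replicate 1 stood apart from the other TKO libraries on the second principal component and in pairwise counts. Mitochondrial counts made up 0.649 to 0.705% of counts in TKO and 0.929 to 1.76% in QKO EpiLCs. Reads on old L2 and MIR repeats at least 50 kb from any gene, taken as a measure of background reads, were at 2.46 to 3.22 per Mb per M gene counts in TKO and at 7.18 to 9.01 in QKO EpiLCs, a ratio of means of 3.01. Beyond the values given with the results below, the part of these background reads in them was not tested. In bulk libraries fewer cells of a type and less RNA per cell cannot be told apart. The paper reports a moderate loss of survival for TKO EpiLCs and a severe one for QKO EpiLCs. The part of survival in the values given here was not tested.

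Of 23399 genes tested, 2333 (9.97%) were higher and 1237 (5.29%) were lower in QKO than in TKO EpiLCs, at an adjusted p under 0.05 and a fold above 2. The libraries of the groups did not overlap for 2048 of the higher and 1108 of the lower genes, and for 9907 of all 23399 genes tested. The higher genes were mostly quiet in TKO cells: 1675 of them (71.8%) had a mean below 1 CPM there, against 37.0% of all genes tested. Long noncoding RNAs made up 30.4% of the higher genes, 5.25% of the lower genes and 13.9% of all genes. For 2329 of the 2333 higher genes, the rise in mean CPM was more than 3 times what the change in background reads would add over the gene's exons. The same held for 10742 (45.9%) of all genes tested. A gene that passed the count filter and rose 2-fold nearly always clears this limit, so it does not measure the part of background reads. Median log2 fold changes by chromosome lay between -0.105 and 0.0724 for the autosomes and X, with chromosome 8 at 0.0170.

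Phf11d, Wnt5a and Hnf4a rose and Irx3 fell, from different starting points. Phf11d, a PHD-finger gene of a cluster on chromosome 14, was at 2.52, 3.12, 1.797 and 2.998 CPM in TKO EpiLCs and at 41.4, 38.02, 44.04 and 42.9 CPM in QKO EpiLCs (log2 fold change 3.98 ± 0.13, adjusted p = 4.7e-25). Every QKO library was far above every TKO library. Phf11d was also at 79.2 and 97.2 CPM in TKO and QKO naive cells and at 2.75 CPM in WT EpiLCs, so the QKO EpiLC level lay between the naive and the WT EpiLC level. Its relatives Phf11b and Phf11c were higher as well, Phf11b at 0.198 ± 0.0861 CPM in QKO and at 0 in each TKO library, and Phf11c at 1.503 ± 0.335 against 0.622 ± 0.358 CPM. Gene counts come from unique alignments, so reads that match more than 1 member of this cluster are left out and their single values are uncertain.

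Wnt5a, a ligand of noncanonical WNT signalling, was at 0.265, 0.107, 0.115 and 0.363 CPM in TKO and 2.77, 3.07, 3.57 and 2.38 CPM in QKO EpiLCs (log2 fold change 3.75 ± 0.43, adjusted p = 2.7e-09). Unlike Phf11d it was nearly silent in naive cells, at 0.0912 and 0.0182 CPM in those of TKO and QKO, and its EpiLC change exceeded its naive change by 5.90 on the log2 scale (adjusted p = 1.3e-05). Such naive levels rest on few reads, so the size of that difference is uncertain. Hnf4a, an endoderm transcription factor, was at 0.0441, 0.249, 0.344 and 0.212 CPM in TKO and 2.05, 2.398, 2.46 and 3.92 CPM in QKO EpiLCs (log2 fold change 3.63 ± 0.30, adjusted p = 5.1e-13). Neither gene overlapped between groups. Irx3, a homeobox factor of the Iroquois family, went the other way, from 9.75, 4.97, 6.27 and 5.18 CPM in TKO to 0.8999, 0.767, 0.7203 and 0.981 CPM in QKO EpiLCs (log2 fold change -2.95 ± 0.32, adjusted p = 8.3e-10). The TKO level of Irx3 was above the 1.65 CPM of WT EpiLCs and the QKO level below it. Its relative Irx5 fell from 11.4 to 5.42 CPM. Of 5 Iroquois genes tested, 2 (Irx3 and Irx5) were lower and 0 higher, against 5.29% and 9.97% of all genes. The call of Irx5 (log2 fold change -1.07) was lost without TKO replicate 1 (-0.997) or QKO replicate 2 (-0.98).

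**Figure D1:**
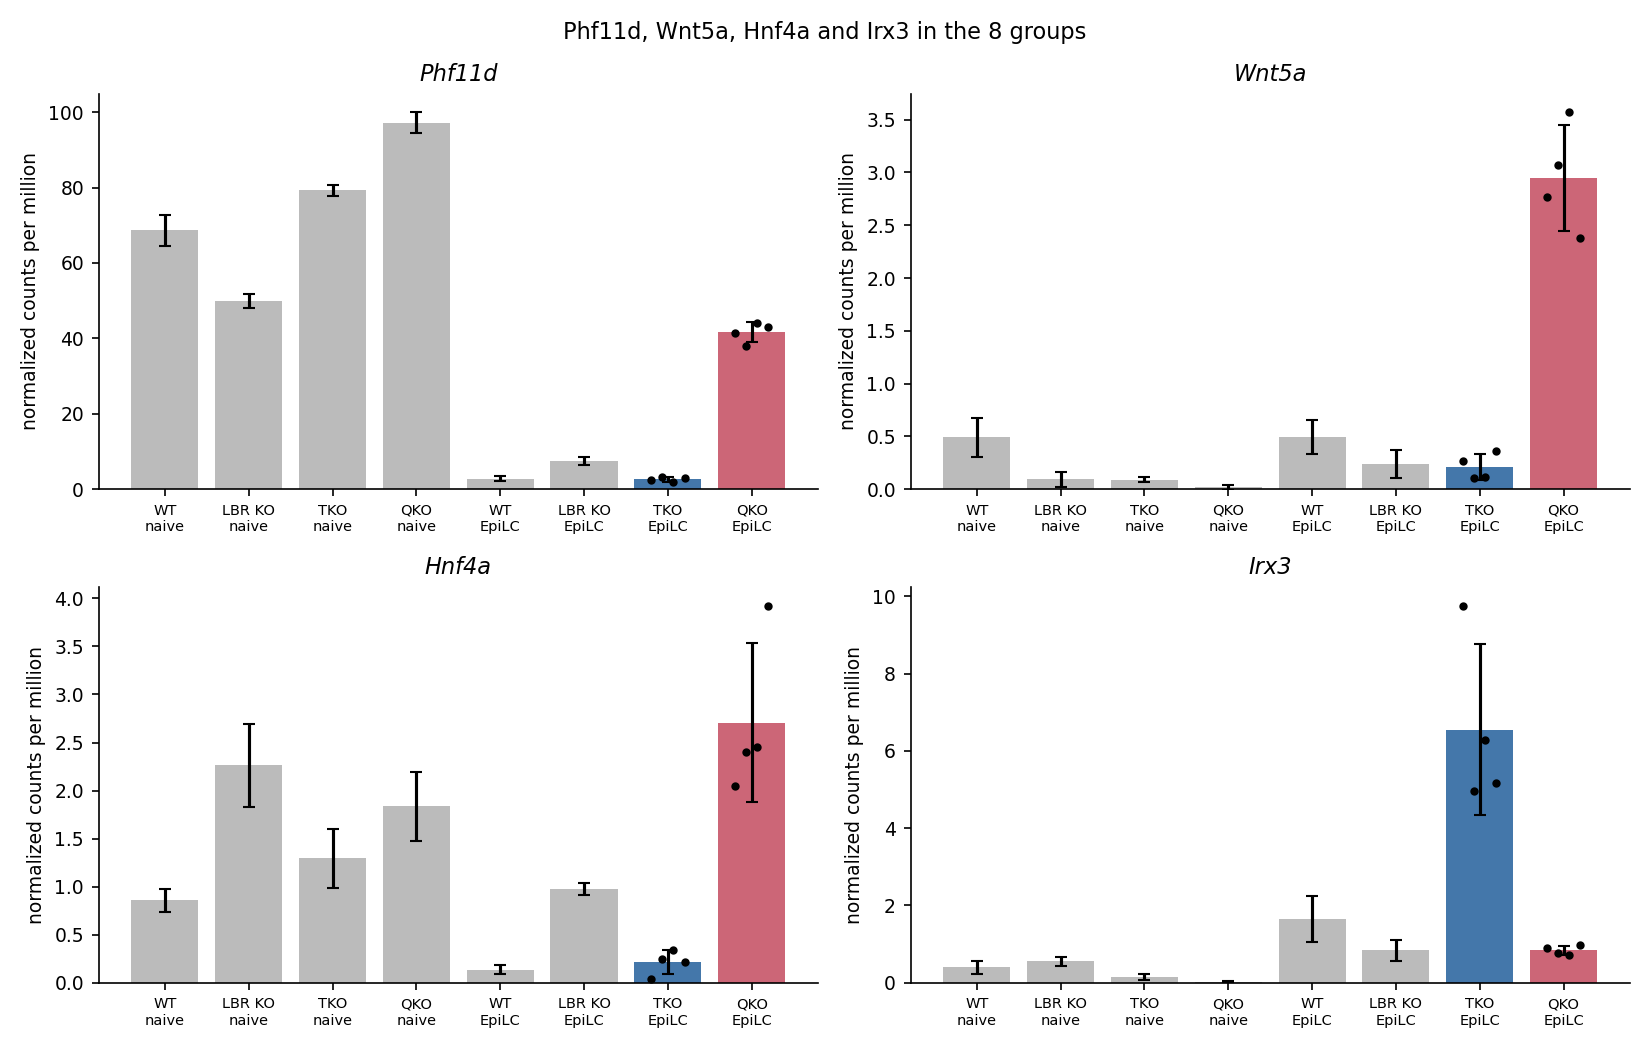
Mean level in normalized CPM (bars; error bars are SD, n = 8 for WT and n = 4 for the other groups) of Phf11d, Wnt5a, Hnf4a and Irx3 in naive mES cells and EpiLCs of each genotype, with the single TKO and QKO EpiLC libraries as points. Phf11d is high in the 4 naive groups and, among EpiLCs, far highest in QKO at 41.6 CPM, whereas Wnt5a is highest in QKO EpiLCs (2.95 CPM) with naive levels under 1 CPM.

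The other genes with the largest increases were of mixed kinds. Slfnlnc, a long noncoding RNA, rose most, from 0.245 ± 0.132 to 10.1 ± 0.917 CPM (log2 fold change 5.30 ± 0.28). Mir142hg, the host transcript of a blood cell microRNA, rose from 0.266 to 5.32 CPM, and Neat1, the scaffold RNA of paraspeckles, from 5.14 to 51.9 CPM. Whether counting used the strand is not given, so reads of genes that overlap these RNAs cannot be told apart from their own. Ngfr, the low-affinity neurotrophin receptor, rose from 0.776 to 11.1 CPM, Cd80, a costimulatory ligand of T cells, from 2.94 to 28.7 CPM, and Mmrn2, an extracellular matrix protein, from 3.05 to 29.9 CPM. Ebf3, a helix-loop-helix transcription factor, rose from 0.5995 to 6.597 CPM, and the cancer-testis gene Magea4 from 0.732 to 7.21 CPM. Rcsd1, Fcgbpl1 and Anxa8 complete the 12 largest increases, with log2 fold changes of 3.81, 3.77 and 3.35.

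Among the 12 largest decreases, 8 genes rise when WT cells become EpiLCs. Kif1a, an axonal motor, was at 55.1, 55.5, 56.3 and 49.3 CPM in TKO and 8.03, 9.05, 8.02 and 8.38 CPM in QKO EpiLCs (log2 fold change -2.69 ± 0.12), with 0.587 CPM in WT naive cells and 119 CPM in WT EpiLCs. No QKO library came near the TKO range. Cldn7, a tight junction protein, went from 45.9 to 7.18 CPM, and Epha7, an ephrin receptor, from 16.9 to 2.902 CPM. Zfp618, a zinc finger gene (log2 fold change -3.06 ± 0.26), Fndc3c1 (-2.81 ± 0.20), Fut1, a fucosyltransferase (-2.76 ± 0.27), and Irx3 are also among the 8. Alg13, an X-linked gene of protein glycosylation, fell from 152 to 25.00 CPM and was also low in QKO naive cells (71.7 CPM against 639 CPM in TKO). Ap3b2, an adaptor subunit of neurons, Mmd and Nlrp9b had log2 fold changes of -2.91, -2.78 and -2.61.

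The same relation was seen across the transcriptome. In the WT libraries, which took no part in the QKO against TKO contrast, 3007 genes fell and 4270 rose more than 2-fold from naive cells to EpiLCs (12.9% and 18.2% of genes tested). Of the genes that fell in WT, 24.6% were higher in QKO than in TKO EpiLCs, against 9.97% of all genes, and 4.52% were lower. Of the genes that rose in WT, 16.2% were lower in QKO EpiLCs, against 5.29% of all genes, and 8.92% were higher. Read the other way, 740 of the 2333 higher genes (31.7%) fell in WT and 693 of the 1237 lower genes (56.0%) rose in WT.

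**Figure D2:**
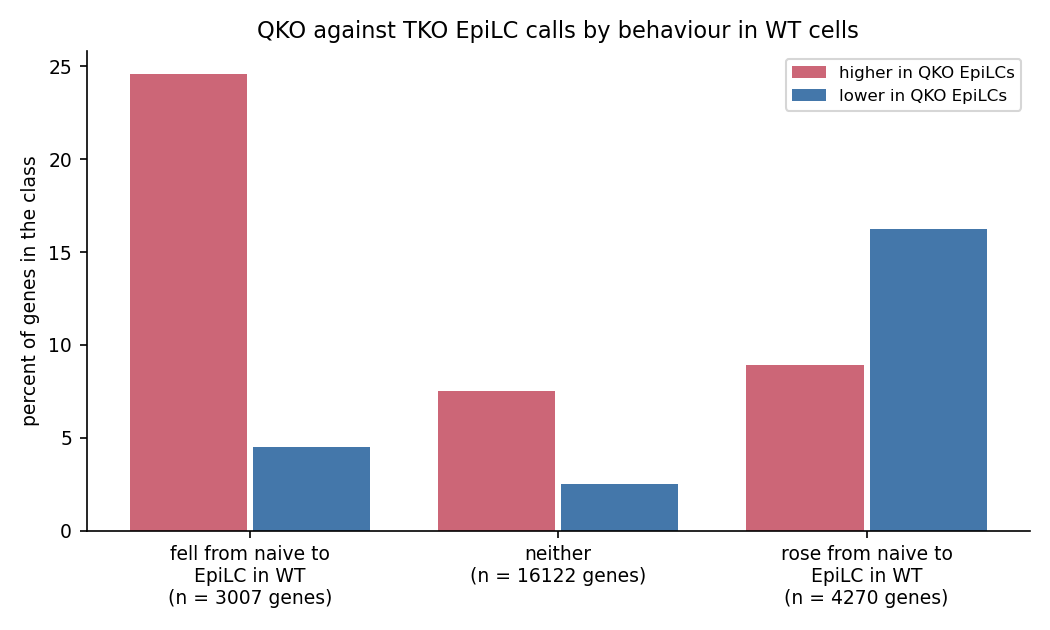
Percent of genes called higher (red) or lower (blue) in QKO than TKO EpiLCs, for genes that fell, rose or did neither by more than 2-fold from naive mES cells to EpiLCs in WT. Genes that fell in WT were called higher in 24.6% of cases and genes that rose in WT were called lower in 16.2%.

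Of 14 naive pluripotency genes tested, 5 were higher and 1 was lower in QKO EpiLCs, against 9.97% and 5.29% of all genes, and the median log2 fold change was 0.59 against -0.0089 over all genes. Esrrb, an orphan nuclear receptor of the naive network, was at 8.83, 9.38, 10.4 and 12.7 CPM in TKO and 38.7, 41.9, 50.03 and 49.6 CPM in QKO EpiLCs (log2 fold change 2.12 ± 0.11, adjusted p = 1.6e-18). The groups were well apart, yet QKO EpiLCs were far below the 852 CPM of QKO naive cells. Nr0b1, a corepressor, rose from 7.13 to 23.4 CPM, the zinc finger gene Zfp42 from 26.5 to 54.1 CPM, the T-box factor Tbx3 from 1.503 to 3.69 CPM and Tcl1, an AKT coactivator, from 1.05 to 2.81 CPM. Nanog moved against the other called members, from 78.96, 84.8, 84.2 and 95.2 CPM in TKO to 26.7, 28.7, 31.1 and 30.3 CPM in QKO EpiLCs (log2 fold change -1.56 ± 0.19). In naive cells Esrrb was at 889 and 852 CPM and Nanog at 827 and 819 CPM in TKO and QKO, and the EpiLC and naive changes differed by 2.18 for Esrrb and by -1.54 for Nanog (adjusted p = 1.8e-14 and 1.6e-05). Klf4, at 5.39 and 6.72 CPM, and Prdm14, at 0.0262 and 0.09599 CPM, were not called.

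Among general and formative pluripotency factors, 2 rose. Sox2, which pairs with Pou5f1 on pluripotency enhancers, was at 58.5 to 63.4 CPM in TKO and 118 to 137 CPM in QKO EpiLCs (log2 fold change 1.04 ± 0.10). Without QKO replicate 3 the log2 fold change of Sox2 was 0.995. Otx2, a driver of the formative state, was at 60.8, 75.1, 71.8 and 72.5 CPM in TKO and 162, 163, 168 and 172 CPM in QKO EpiLCs (log2 fold change 1.25 ± 0.32, adjusted p = 0.0018). The WT EpiLC level of Otx2, 119 CPM, lay between the groups. Pou5f1 was at 409.9 and 288 CPM (log2 fold change -0.51 ± 0.11), and Dnmt3b, the de novo methyltransferase of the epiblast, at 2649.6 and 1693 CPM (-0.65 ± 0.12), both short of a 2-fold change.

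Primitive endoderm is the other lineage of the inner cell mass, and its genes split. Of 21 tested, 5 were higher and 3 lower, against 9.97% and 5.29% of all genes, with a median log2 fold change of 0.10. Gata6, an upstream factor of the lineage, was at 0.485, 0.675, 0.421 and 0.666 CPM in TKO and 3.096, 3.102, 3.47 and 1.93 CPM in QKO EpiLCs (log2 fold change 2.35 ± 0.34). The receptor gene Pdgfra rose from 0.552 to 2.32 CPM, the laminin gene Lama1 from 9.596 to 26.9 CPM and the proteoglycan gene Srgn from 0.1297 to 0.577 CPM, besides Hnf4a. Dab2, an endocytic adaptor, fell from 9.38 to 2.42 CPM, the factor Sox7 from 0.812 to 0.123 CPM and Amn, a subunit of an endocytic receptor, from 1.77 to 0.396 CPM. The defining factors Gata4, at 5.896 and 4.83 CPM, and Sox17, at 0.385 and 0.566 CPM, were not called.

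Lists of other lineages held few calls, with shares to be read against the 9.97% higher and 5.29% lower of all genes. Of 13 trophectoderm genes tested 2 were higher and 1 lower, and the defining factor Cdx2 was at 0.326 and 0.245 CPM. Of 14 mesendoderm genes 2 were higher and 0 lower. Eomes, a T-box factor in both lists, was at 6.84 to 9.57 CPM in TKO and 20.4 to 22.6 CPM in QKO EpiLCs (log2 fold change 1.44 ± 0.11), whereas T, the brachyury gene of the primitive streak, was at 0.333 and 0.102 CPM and not called. Of 17 neural genes 2 were higher and 2 lower. The neural factor Sox1 fell from 46.8 ± 4.68 to 16.3 ± 1.61 CPM and the eye and forebrain factor Pax6 from 5.04 to 1.82 CPM, and the ventral neural tube factor Nkx2-2 rose from 0.187 to 1.18 CPM.

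**Figure D3:**
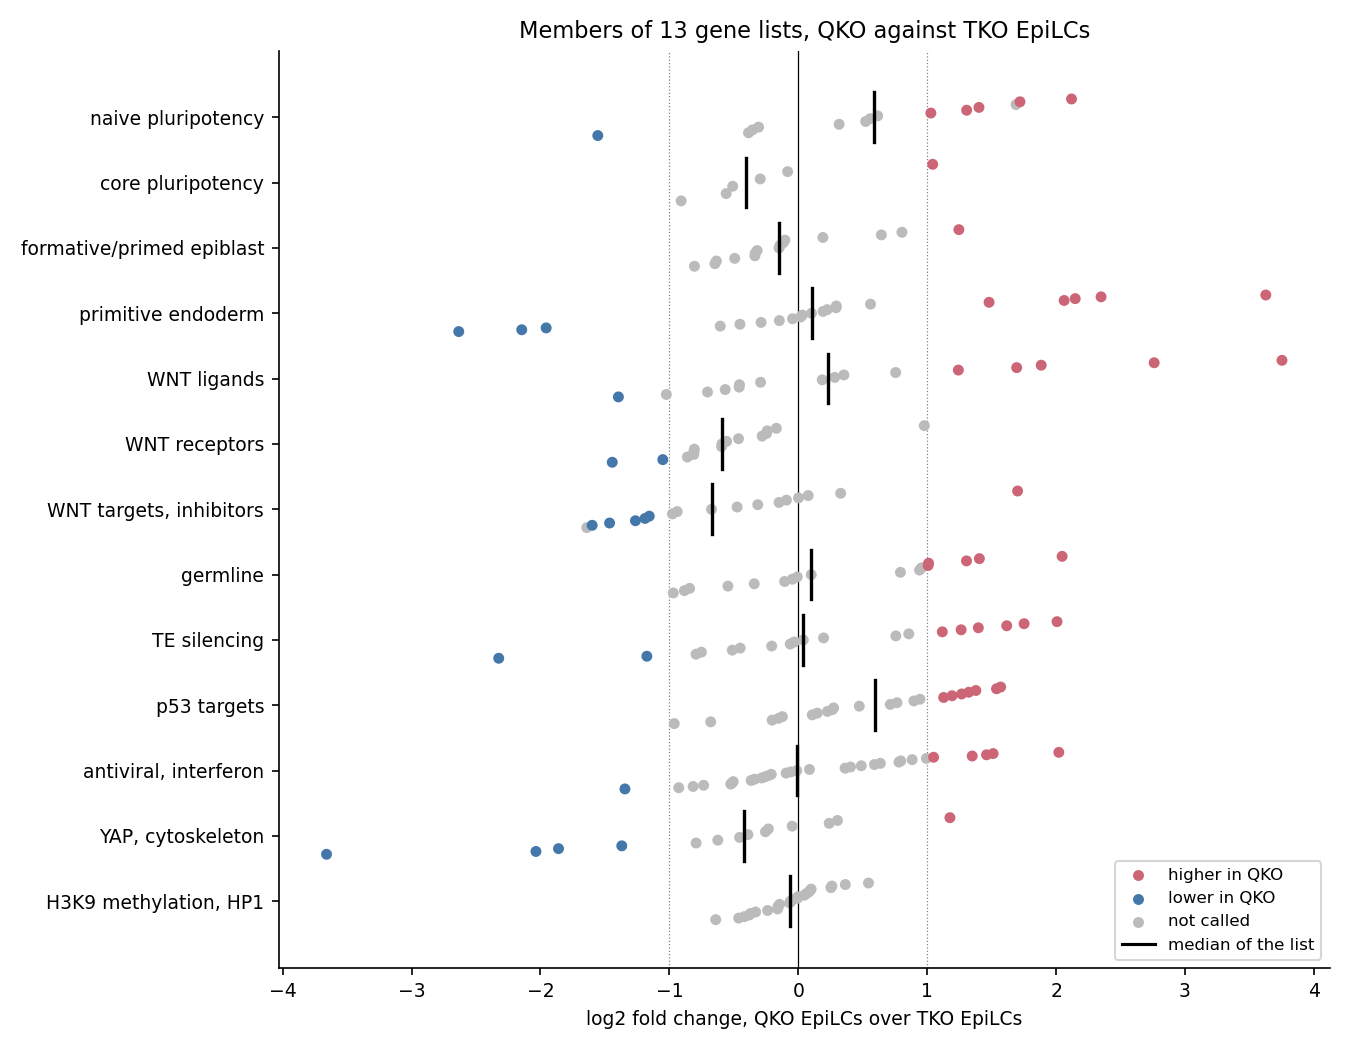
Log2 fold change of each tested member of 13 gene lists (points) in QKO over TKO EpiLCs, with the median of each list as a black bar and dotted lines at a 2-fold change. Called genes are red (higher) or blue (lower), and vertical position within a list has no meaning: naive genes, WNT ligands, germline genes and p53 targets hold mostly red points among those called, and the list of H3K9 methylation and HP1 holds 0 called genes.

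WNT genes are given by role, and the roles were not tested against each other. WNT proteins are secreted ligands that act through Frizzled receptors, and secreted SFRP proteins bind WNTs and inhibit them. Of 16 ligand genes tested 5 were higher and 1 lower (median log2 fold change 0.23), of 15 receptor genes 0 were higher and 2 lower (median -0.59), and of 17 targets and inhibitors 1 was higher and 5 lower (median -0.67), against 9.97% higher and 5.29% lower of all genes. Besides Wnt5a, the ligands Wnt10a (0.217 to 1.49 CPM), Wnt6 (0.953 to 3.08 CPM), Wnt8a (1.39 to 3.29 CPM) and Wnt8b (0.189 to 0.7099 CPM) rose, and Wnt5b fell from 3.09 to 1.18 CPM. The receptor Fzd9 was at 7.37 to 8.69 CPM in TKO and 2.304 to 3.96 CPM in QKO EpiLCs, and the receptor Fzd2 at 79.04 to 84.7 against 34.6 to 46.7 CPM. Fzd2 was just short of 2-fold without QKO replicate 1 or 4 (-0.99 each), and Rnf43 had an adjusted p above 0.05 without any 1 of 6 libraries (0.051 to 0.11). The inhibitors Sfrp1, Sfrp2 and Sfrp5 fell, Sfrp1 from 24.8 to 8.23 CPM (log2 fold change -1.60 ± 0.14), as did the feedback genes Nkd1 (-1.19) and Rnf43 (-1.26). Notum, a WNT deacylase, rose from 0.661 to 2.13 CPM. Axin2, the usual readout of canonical WNT signalling, was at 13.6 to 15.5 CPM in TKO and 13.3 to 15.8 CPM in QKO EpiLCs and was not called.

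Genes of the germline and of retrotransposon silencing included increases. Germline genes are commonly kept silent in somatic cells by DNA methylation and by repressors that bind E-boxes in their promoters, and many of the silencing genes act in the piRNA pathway of germ cells. Of 17 germline genes tested 5 were higher and 0 lower, and of 19 silencing genes 6 were higher and 2 lower, against 9.97% and 5.29% of all genes. Hormad1, a protein of the meiotic chromosome axis, was at 17.6, 18.7, 15.7 and 19.05 CPM in TKO and 82.97, 71.8, 65.8 and 73.2 CPM in QKO EpiLCs (log2 fold change 2.05 ± 0.14, adjusted p = 7.3e-16). The lowest QKO library was more than 3 times the highest TKO library. Sycp1, of the synaptonemal complex, rose from 9.48 to 23.4 CPM, the transcription factor subunit Taf7l from 7.83 to 20.7 CPM, the RNA-binding gene Dazl from 15.5 to 31.4 CPM and Tex101, of the germ cell surface, from 1.16 to 2.32 CPM. Dazl was short of 2-fold without TKO replicate 1 (log2 fold change 0.90) or QKO replicate 3 (0.99), and Tex101 without TKO replicate 3 or 4 or QKO replicate 2 or 4 (0.94 to 0.98). Ddx4, the vasa helicase, was at 36.7 and 39.3 CPM and was not called.

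In the silencing list, Tex19.1, which restrains retrotransposons in germ cells, was at 42.2, 38.9, 40.7 and 39.6 CPM in TKO and 137, 159.7, 185 and 167 CPM in QKO EpiLCs (log2 fold change 2.01 ± 0.18). Morc1, a germline silencing ATPase, was at 24.4 to 29.2 CPM in TKO and 90.3 to 97.03 CPM in QKO EpiLCs (1.75 ± 0.07), and Fkbp6, a piRNA cochaperone, at 15.4 to 17.9 against 46.9 to 53.8 CPM (1.62 ± 0.09). None of these 3 genes overlapped between groups. In TKO and QKO naive cells Tex19.1 was at 54.2 and 69.98, Morc1 at 192 and 170.4 and Fkbp6 at 34.4 and 37.98 CPM, and their EpiLC changes exceeded the naive ones by 1.64, 1.92 and 1.48 (adjusted p = 2.6e-06, 7.3e-19 and 1.2e-11). Tdrd12, a piRNA factor, rose from 43.5 to 114 CPM, Dnmt3l, the cofactor of de novo methylation, from 255 to 613 CPM and Tdrd9, a piRNA pathway helicase, from 0.536 to 1.16 CPM. Tdrd5 fell from 12.2 ± 1.598 to 2.43 ± 0.0829 CPM (log2 fold change -2.32 ± 0.21) and Piwil4 from 1.305 to 0.575 CPM, the latter with overlapping libraries. Tdrd9 was short of 2-fold without TKO replicate 4 (0.92), and Piwil4 without TKO replicate 4 (-0.91) or QKO replicate 2 (-0.96).

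Promoter windows of genes that rose are shown because germline promoters are known for E-boxes. RefSeq windows on GRCm38.p6 run from 250 bases before to 50 bases after a start, and the motif searched was CACGTG, which reads the same on both strands. It was in 7.15% of all 32851 windows and in at least 1 window of 11.0% of the 13150 tested genes with a window. Of 31 germline and silencing genes with a window, it was in 6 of the 10 that were higher (Hormad1, Sycp1, Taf7l, Fkbp6, Tdrd9 and Dnmt3l) and in 9 of the 21 that were not. The windows of Hormad1 (chr3:95559427-95559726, plus strand), Fkbp6 (chr5:135349864-135350163, minus strand) and Tdrd9 (chr12:111971309-111971608, plus strand) each hold 2 matches, given in capitals and read 5′ to 3′ along the gene.
Hormad1: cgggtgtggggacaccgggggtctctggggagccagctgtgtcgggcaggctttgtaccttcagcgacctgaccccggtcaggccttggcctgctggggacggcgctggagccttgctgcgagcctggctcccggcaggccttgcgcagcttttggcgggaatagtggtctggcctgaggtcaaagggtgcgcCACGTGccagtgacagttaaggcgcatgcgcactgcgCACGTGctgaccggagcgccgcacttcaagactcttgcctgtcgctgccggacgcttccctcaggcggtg
Fkbp6: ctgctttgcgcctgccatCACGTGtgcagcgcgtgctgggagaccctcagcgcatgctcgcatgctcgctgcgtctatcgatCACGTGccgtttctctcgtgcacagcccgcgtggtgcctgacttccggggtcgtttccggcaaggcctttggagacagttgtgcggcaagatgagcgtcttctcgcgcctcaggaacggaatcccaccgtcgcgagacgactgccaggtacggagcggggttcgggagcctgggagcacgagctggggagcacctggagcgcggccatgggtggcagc
Tdrd9: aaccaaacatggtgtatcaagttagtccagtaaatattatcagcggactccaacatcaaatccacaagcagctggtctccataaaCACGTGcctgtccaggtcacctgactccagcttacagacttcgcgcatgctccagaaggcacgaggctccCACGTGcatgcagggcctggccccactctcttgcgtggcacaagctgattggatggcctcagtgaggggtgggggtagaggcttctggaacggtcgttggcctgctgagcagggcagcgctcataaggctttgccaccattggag
No factor was measured at these matches.

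Genes known as p53 targets included increases and no called decrease. Of 22 tested, 7 were higher and 0 lower, against 9.97% and 5.29% of all genes, and the median log2 fold change was 0.59. Trp73, a p53 relative, was at 20.04, 20.6, 22.5 and 20.8 CPM in TKO and 51.5, 55.4, 71.6 and 65.4 CPM in QKO EpiLCs (log2 fold change 1.54 ± 0.11). Mdm2, the ubiquitin ligase that limits p53, was at 132 to 154 CPM in TKO and 308 to 323 CPM in QKO EpiLCs (1.13 ± 0.09), and the kinase gene Plk2 at 40.8 to 49.7 against 116 to 126 CPM (1.38 ± 0.19). No library of these genes overlapped between groups. Trp53inp1 (1.27), the receptor genes Eda2r (1.19) and Fas (1.57), and Perp (1.32) were the other members called. Fas had an adjusted p above 0.05 without any 1 of 6 libraries (0.053 to 0.065). The cell cycle inhibitor Cdkn1a was at 67.2 to 81.5 CPM in TKO and 133 to 152 CPM in QKO EpiLCs, a log2 fold change of 0.94 ± 0.11 that was short of the 2-fold limit, as was that of Ccng1, 0.90 ± 0.06. The proapoptotic genes Bbc3, at 40.96 and 37.6 CPM, and Bax, at 113 and 125 CPM, were not called.

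Antiviral sensors and interferon response genes gave 5 higher and 1 lower of 31 tested, not far from the 9.97% and 5.29% of all genes, with a median log2 fold change of -0.011. Rigi, a sensor of viral RNA, was at 6.13 to 7.48 CPM in TKO and 17.2 to 22.4 CPM in QKO EpiLCs (log2 fold change 1.51 ± 0.25), and at 30.01 and 35.8 CPM in their naive cells. The response genes Oas2, Ifit1 and Irf7 rose to 1.15, 0.726 and 1.04 CPM from 0.408, 0.171 and 0.496 CPM. Irf7 was short of 2-fold without TKO replicate 1 or 4 or QKO replicate 3 (log2 fold change 0.90 to 0.98), and Ifit1 had an adjusted p of 0.0501 without TKO replicate 2. Oasl1 fell from 1.22 to 0.485 CPM. The response gene Isg15, at 0.173 and 0.152 CPM, and the sensor Ifih1, at 0.109 and 0.0544 CPM, were near zero in both groups.

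Of 14 YAP target and cytoskeleton genes tested 1 was higher and 4 lower, against 9.97% and 5.29% of all genes. Myl9, a myosin light chain, was at 18.2, 18.8, 18.9 and 16.4 CPM in TKO and 4.896, 3.45, 5.08 and 4.203 CPM in QKO EpiLCs (log2 fold change -2.03 ± 0.23). Calponin, Cnn1, fell from 8.35 to 2.300 CPM, tropomyosin, Tpm2, from 18.00 to 6.97 CPM and smooth muscle actin, Acta2, from 0.644 to 0.0472 CPM. Vim, an intermediate filament gene, rose from 97.4 ± 1.24 to 220.1 ± 13.99 CPM. The YAP targets Ccn1, at 42.6 and 50.3 CPM, and Ccn2, at 60.9 and 58.9 CPM, were not called. Of 6 fibroblast genes tested, a check for other cells in the culture, 3 were lower and 0 higher, among them Dcn, from 8.13 to 2.72 CPM, which was at 10.2 CPM in WT EpiLCs and at 0 in the naive cells of both lines. Without QKO replicate 1 the collagen genes Col1a2 (adjusted p = 0.055) and Col1a1 (log2 fold change -0.991) lost their calls, and Col1a1 was also short of 2-fold without TKO replicate 1 (-0.971) and in the 8 libraries alone (-0.998).

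The machinery of H3K9 methylation showed no change of 2-fold. Of 25 genes of H3K9 methylation and HP1 tested, 0 were called by edgeR, 0 were called by DESeq2 and 14 had an unadjusted p under 0.05. Of all 23399 genes tested, 9.97% were higher and 5.29% lower by edgeR, 3524 were called by DESeq2 and 11409 had an unadjusted p under 0.05. The corepressor Trim28 was at 1872 and 1869 CPM, the methyltransferase Ehmt2 at 155 and 139 CPM and the HP1 gene Cbx5 at 854 and 818 CPM. Of 22 nuclear envelope genes 2 were higher and 0 lower, against 9.97% and 5.29% of all genes. Tmem43, an inner nuclear membrane protein, was at 25.3 to 36.6 CPM in TKO and 69.1 to 81.1 CPM in QKO EpiLCs (log2 fold change 1.24 ± 0.08), and the nesprin gene Syne3 rose from 0.3895 to 1.66 CPM.

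Of 8 Y-linked genes tested, 4 were higher in QKO EpiLCs, against 9.97% of all genes. Kdm5d, a histone demethylase, was at 1.15, 1.38, 0.727 and 0.939 CPM in TKO and 8.82, 8.63, 9.14 and 8.83 CPM in QKO EpiLCs, and the zinc finger gene Zfy1 rose from 1.25 to 9.74 CPM. The helicase Ddx3y was at 60.8 and 119.5 CPM and the demethylase Uty at 36.4 and 55.1 CPM, short of 2-fold. Kdm5d was at 1.69 and 19.3 CPM in TKO and QKO naive cells. The TKO line was a mixture of cells with and without a Y chromosome, so the Lbr genotype and the share of Y-bearing cells cannot be told apart here.

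Transposable elements (TEs) took a larger share of counts in QKO EpiLCs. In the table that assigns multimapped reads to TE families, TEs held 9.62% ± 0.13 of counts in TKO and 13.9% ± 0.30 in QKO EpiLCs (SD, n = 4 each), with ranges of 9.46 to 9.78% and 13.5 to 14.3%. The difference of 4.28 percentage points had p = 0.0286 in a two-sided exact permutation test, the smallest p that 4 against 4 libraries can give, and 0.0343 after Benjamini-Hochberg adjustment over 6 measures. By class, LINEs were at 1.48 and 2.65%, SINEs at 4.23 and 6.09%, LTR elements at 2.40 and 3.61% and satellites at 0.0266 and 0.0527% of counts in TKO and QKO, each without overlap. DNA transposons were at 1.36 and 1.28%, with overlapping ranges (exact permutation p = 0.543). Most of that share came from 1 family, FordPrefect, named after its values were seen. FordPrefect was at 12023 and 8956 CPM (log2 fold change -0.42 ± 0.16). Of 273 DNA families, 54 were higher and 1 was lower, against 22.7% and 0.0876% of all families.

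The increase was spread over families. Of 1142 families tested, 259 (22.7%) were higher and 1 (0.0876%) was lower in QKO EpiLCs. The median log2 fold change of all families was 0.84, so a family near that value changed as the median family did. L2 and MIR families, old elements with little activity of their own, had medians of 0.77 and 0.76, SINE families 0.75, LINE families 0.84, DNA families 0.81 and LTR families 0.87. The background reads, themselves counted on L2 and MIR copies far from genes, were 3.01 times as many in QKO EpiLCs. Their part in these medians was not tested. For 223 of the 259 higher families the rise was more than 3 times what background reads would add over the family's total length. Among families not called, B1_Mur3 (24.6 times) and AmnL2-1 (16.1 times) passed this limit too, and ERVB4_2-I_MM (1.79 times) did not. The share over all families was not counted, so the limit does not set the called families apart. The single lower family was Eulor12, a rare DNA element at 0.653 and 0.270 CPM, named after its values were seen.

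**Figure D4:**
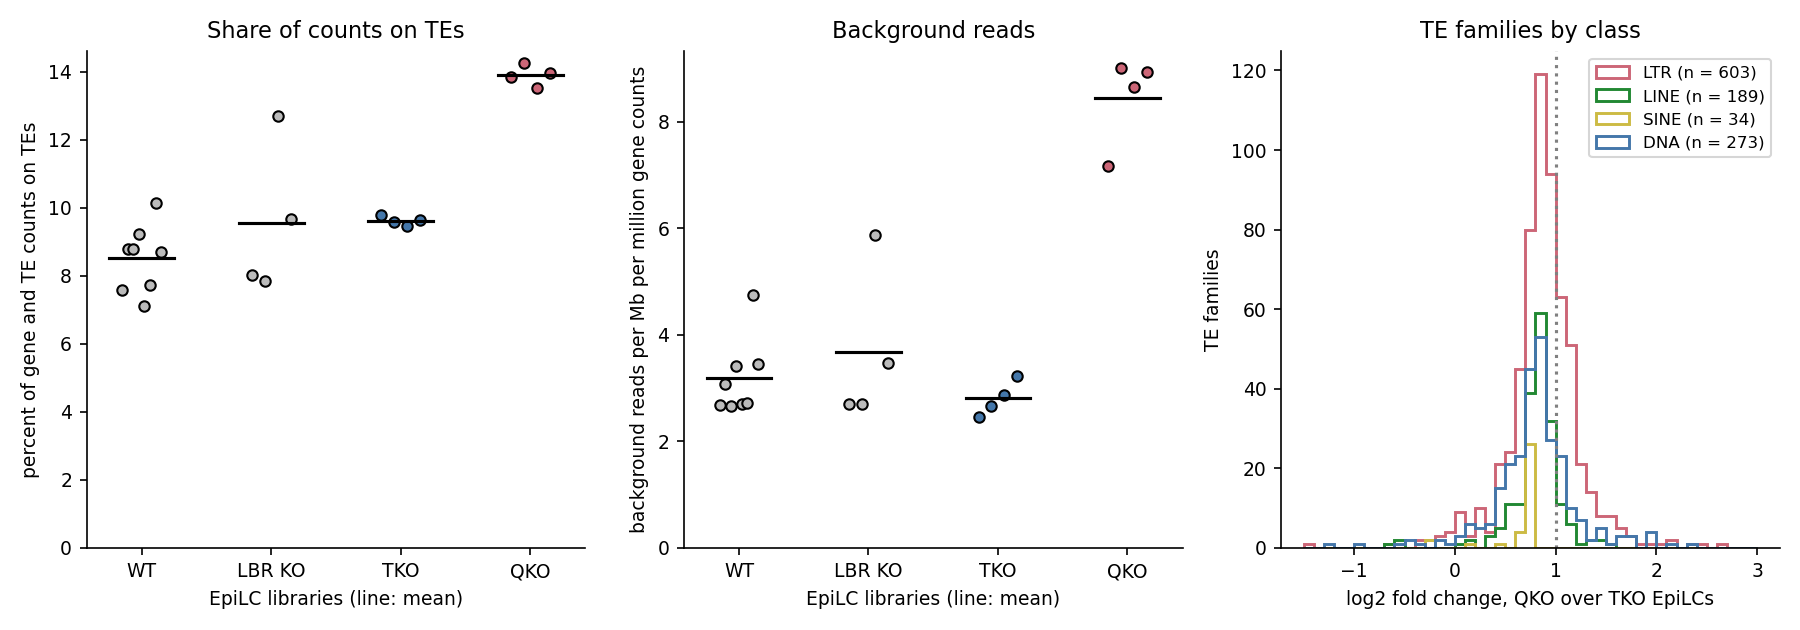
Share of counts on TEs (left) and background reads per Mb per M gene counts (middle) in each EpiLC library by genotype, with group means as lines, and the number of TE families by log2 fold change in QKO over TKO EpiLCs, in bins, for each class (right; the dotted line marks a 2-fold change). The 4 QKO libraries are the highest in both measures, and the medians of the 4 classes lie between 0.75 and 0.87 on the log2 scale.

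Of the 6 families with the largest increases at 5 CPM or more, 5 are LTR elements of the ERVK superfamily and 1 is a DNA element. Of 274 ERVK families tested 93 were higher and 0 lower (median 0.92), and of 111 ERV1 families 43 were higher and 0 lower (median 0.90), against 22.7% higher of all families. ERVB5_1-I_MM was at 1.02, 1.68, 0.995 and 1.46 CPM in TKO and 7.68, 7.21, 7.93 and 8.94 CPM in QKO EpiLCs (log2 fold change 2.61 ± 0.20), with no overlap. IAP1-MM_I, an internal part of an intracisternal A particle, was at 5.25 to 6.41 CPM in TKO and 27.05 to 30.4 CPM in QKO EpiLCs (2.32 ± 0.15), a rise of 11.5 times the background estimate. Families not called ranged widely in this multiple, with B1_Mur3 at 24.6, the L2 family AmnL2-1 at 16.1 and ERVB4_2-I_MM at 1.79. The multiple therefore does not tell a rise of 1 family from the shift common to families. MMERVK10D3_I rose from 26.02 to 89.3 CPM (1.78 ± 0.15) and MMERVK10C-int from 51.3 to 156 CPM (1.61 ± 0.23). ERVB7_2B-LTR_MM rose from 5.302 to 16.2 CPM, and Charlie30a, a DNA transposon, from 3.73 to 14.3 CPM.

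Other groups of elements differed in degree. Of 25 IAP families tested 11 were higher and 0 lower, against 22.7% higher of all families. The rise of IAP1-MM_I, IAP1-MM_LTR, IAPLTR4 and IAPLTR2a2_Mm was 3.16 to 11.5 times the background estimate, and that of the other 7 was 0.438 to 2.997 times it, with IAPEy-int at 1.03 times and IAPEY5_LTR, IAPEY3-int, IAPLTR3-int and IAPLTR3 below 1. The abundant IAPEz-int was at 295 to 312 CPM in TKO and 514 to 541 CPM in QKO EpiLCs, a log2 fold change of 0.81 ± 0.09 near that of the median family. Of 8 young LINE-1 families 3 were higher, all of the A subtype. L1MdA_I was at 1477, 1240.3, 1248 and 1247 CPM in TKO and 3517, 2698, 2669 and 2900.2 CPM in QKO EpiLCs (1.18 ± 0.18), with replicate 1 the highest in each group. L1MdA_II was at 249.6 to 314 against 585 to 926 CPM (1.36 ± 0.16) and L1MdA_III at 161 to 179 against 305 to 438 CPM (1.08 ± 0.16), the latter with a rise of 2.39 times the background estimate, and L1MdTf_I, at 0.96 ± 0.14, was not called. The internal part of MERVL, an element of 2-cell embryos, was at 97.3 and 147 CPM (0.59 ± 0.18), below the change of the median family. MMETn-int, of the ETn group, was at 5695 and 5380.2 CPM (-0.08 ± 0.07).

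Single TE copies, counted from uniquely mapped reads, depended on the scaling. With scaling from genes, 17028 of 134958 copies (12.6%) were higher and 725 (0.537%) lower, with a median log2 fold change of 0.74. When copies were scaled to each other, which removes a shift common to all copies, 4151 were higher and 3699 lower. Without TKO replicate 1 the higher copies numbered 10592. Copies outside genes were higher in 20.6% of cases and copies inside genes in 11.4%. Of 776 L1MdA_I copies tested, 266 were higher and 0 lower, 190 of the 266 outside genes, with a median of 1.36.

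A higher copy outside genes lay within 10 kb of 383 of the 2333 higher genes (16.4%), of 16 of the 1237 lower genes (1.29%) and of 6.98% of all genes tested. These genes and copies come from the same libraries, so the shares are a description.

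The change between QKO and TKO depended on the stage. The EpiLC change exceeded the naive change past the threshold for 1008 genes (4.31%) and fell below it for 798 (3.41%). QKO against TKO naive cells, a comparison with no library in common with that of the EpiLCs, gave 956 higher (4.09%) and 496 lower genes (2.12%). Of the 2333 genes higher in QKO EpiLCs, 341 (14.6%) were also higher in naive cells, 35.7% of the genes higher there. Of the 1237 lower genes, 152 (12.3%) were also lower in naive cells, 30.6% of the genes lower there. Tgfbi, an extracellular matrix protein, rose in EpiLCs from 2.81 to 8.104 CPM and fell from 3.88 to 0.433 CPM in naive cells. Adgrd1, an adhesion receptor, rose from 0.0804 to 0.9803 CPM in EpiLCs and fell from 5.300 to 1.93 CPM in naive cells. Pou3f2, a neural transcription factor, went the other way, from 1.39 to 0.486 CPM in EpiLCs and from 1.57 to 6.38 CPM in naive cells. Among TE families, 63 (5.52%) were higher and 3 (0.263%) lower in QKO than in TKO naive cells, whereas 24 (2.1%) were higher and 23 (2.01%) lower in WT EpiLCs than in WT naive cells. The EpiLC change exceeded the naive change for 7 families (0.613%) and fell below it for 3 (0.263%). RLTR45-int, an ERVK element among those 3, was at 20.2 and 39.2 CPM in TKO and QKO EpiLCs and at 158 and 1093 CPM in their naive cells.

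The change also differed from that in cells with lamins. LBRKO against WT EpiLCs, which share no library with QKO and TKO, gave 712 higher and 615 lower genes (3.04% and 2.63%). Of the 2333 genes higher in QKO EpiLCs 397 (17.0%) were higher in LBRKO too, 55.8% of the genes higher there, and 217 of the 1237 lower genes (17.5%) were lower in LBRKO, 35.3% of the genes lower there. The change without lamins exceeded that with lamins for 1191 genes (5.09%) and was below it for 692 (2.96%). Phf11d was at 2.75 CPM in WT and 7.43 CPM in LBRKO EpiLCs, and its change without lamins was larger by 2.58 on the log2 scale (adjusted p = 8.1e-15). Nrcam, a neuronal adhesion molecule, rose from 12.1 to 60.7 CPM between TKO and QKO and fell from 18.02 to 4.098 CPM between WT and LBRKO EpiLCs.

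The 2 changes differed past the threshold for 4 of 14 naive genes, 6 of 19 silencing genes and 10 of 17 germline genes tested. They also differed for 1 of 15 formative and primed genes, against 1883 of all 23399 genes. Esrrb, Morc1 and Dnmt3l are examples of list members that rose in both settings. Esrrb was at 16 CPM in WT and 79.8 CPM in LBRKO EpiLCs, and its changes with and without lamins differed by -0.20 (adjusted p = 0.33). Morc1 was at 24.4 and 84.1 CPM (difference -0.03) and Dnmt3l at 146 and 633 CPM (difference -0.86, adjusted p = 2.7e-05). Otx2 differed in sign, being at 119 CPM in WT and 61.7 CPM in LBRKO EpiLCs (difference 2.19, adjusted p = 1.6e-04). For TE families 45 (3.94%) exceeded and 2 (0.175%) fell below the LBRKO against WT change. That count of 47 rests on single LBRKO libraries: it was 194 without replicate 3, which had 12.7% of its counts on TEs, and 23 without replicate 1 or replicate 2.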

How the data were processed

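Total RNA of naive mES cells and EpiLCs was sequenced from ribosome-depleted stranded libraries, 40 in all. Per the methods and the submitters' processing notes, the authors trimmed reads with cutadapt 2.5, aligned them to GRCm39 with STAR 2.7.10a, either keeping unique alignments or allowing multimapping, used SAMtools 1.10, and counted genes and single TE copies with featureCounts 1.6.4 and genes with TE families with TEcount. The deposited values are raw counts in all 3 tables used here, not normalized, and the strand setting of counting is not given in the sources used here.

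All 40 libraries in 8 groups were fitted with edgeR 4.0.16 in R 4.3.3 (TMM factors, filterByExpr, quasi-likelihood test, Benjamini-Hochberg adjustment over all features). Single copies with at least 10 counts entered this filter and took the library sizes and factors of the gene table. A feature was called at an adjusted p under 0.05 and a fold over 2, and each standard error is the log2 fold change divided by the root of F. Alternatives were DESeq2 1.42.0, RLE factors, no low-count filter, glmTreat against a 1.5-fold change, the 8 libraries alone, a replicate block, chromosomes 8 and Y left out, and each library left out. The script was tested on simulated data. Gene positions and types come from a GENCODE release that may differ from the authors', and promoters from RefSeq GRCm38.p6.

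Named genes were the 12 largest called changes in each direction, without overlap and at 5 CPM or more, leaving out genes known only by a clone or model number, with 6 families each way by the same rule, the 5 highest and 5 lowest genes for each difference of changes, and members of the lists, and some genes that this rule names are not reported here. Members and lists were chosen with earlier results of these data known. Counts of 22.6 to 33.2 M per TKO or QKO EpiLC library limit genes under 1 CPM most. WT EpiLC libraries held 25.4 to 48.9 M counts and LBRKO EpiLC libraries 40.8 to 48.1 M.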

Additional observations from a re-analysis of the deposited data

Results flagged for a closer look

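In 4 of 118 groups of 4 libraries checked for a library far from the rest, 1 stood out, and chance flags about 1 in 20 groups. Rcsd1 was at 7.38 CPM in QKO replicate 1 against 8.94 to 9.05 CPM in the others, and Charlie30a at 17.0 CPM in that library against 13.2 to 13.7 CPM. Nrcam was at 11.0 CPM in TKO replicate 1 against 12.4 to 12.6 CPM. Rhox6, a homeobox gene of the reproductive tract and placenta, was at 1.66 CPM in QKO replicate 2 against 0.869 to 0.972 CPM.

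The QKO against TKO change differed between EpiLCs and naive cells, by the interaction term of edgeR's quasi-likelihood test, for 1806 genes and 10 TE families. The genes with the largest positive differences on the log2 scale were Vax2os (5.43), Adgrd1 (4.99), Mir142hg (4.85), Tal1, a blood transcription factor (4.81), and Tgfbi (4.68). Tal1 was at 4.897 and 6.35 CPM in TKO and QKO EpiLCs and at 0.268 and 0.00958 CPM in their naive cells. The largest negative differences were those of Obox6 (-4.82), Tmem54 (-4.68), Tmem132d (-4.60), Tdpoz8 (-3.60) and Pou3f2 (-3.54). Tmem132d was at 1.14 and 16.5 CPM in naive and 0.575 and 0.3397 CPM in EpiLCs. Vax2os was at 0 in each TKO EpiLC library and Obox6 in each QKO EpiLC library, so their fitted values depend on the prior count, and the difference of Obox6 had an adjusted p of 0.0782 without TKO EpiLC replicate 4.

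The change differed from that of LBRKO against WT EpiLCs for 1883 genes and 47 TE families. The largest positive differences were those of Zfy1 (5.72), Ebf3 (4.50), Nrcam (4.46), Rcsd1 (3.82) and Kdm5d (3.73). Zfy1 and Kdm5d are Y-linked, and Zfy1 was at 0.433 CPM in WT and 0.0645 CPM in LBRKO EpiLCs. The largest negative differences were those of Rny3, a small noncoding RNA with many near copies (-4.38), Halr1 (-3.58), Ap3b2 (-2.82), Rhox6 (-2.77) and Mmd (-2.65). Rhox6 was at 1.12 and 1.11 CPM in TKO and QKO EpiLCs and at 1.45 and 9.82 CPM in WT and LBRKO EpiLCs.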

How the results depend on the processing

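The counts of genes higher and lower in QKO than TKO EpiLCs stayed within 1.5 times the reported ones in every alternative. With 1 library left out they were 2110 to 2342 higher, the lowest without TKO replicate 1, and 1163 to 1262 lower, and families higher were 223 to 291. By DESeq2 they were 2572 and 1241, and glmTreat gave 1570 and 1222. The single lower TE family became 2 with no low-count filter, 0 with glmTreat, and 1 to 2 with a library left out. Higher single copies numbered 4151 with TMM over the copies, 4384 among copies that overlap no gene, where fewer copies were tested, and 10592 to 14210 with a library left out. Lower copies numbered 3699, 246 and 547 to 617 in those settings. Families whose change differed between stages numbered 8 to 11, and those that differed from LBRKO against WT 23 to 194, with a library left out. The same replicate numbers correlated at 0.241, 0.0060, 0.113 and 0.0659, so they were not taken as pairs, and pair 2 correlated better with another number. With the number as a replicate block, 2150 genes were higher and 1011 lower, 328 families higher and 1 lower, and 16450 copies higher and 781 lower. The block gave 1977 genes and 16 families that differed between stages, and 1916 and 60 that differed from LBRKO against WT. Among named results, 2930 values kept direction and side of the threshold, 101 (35 results) fell short of it, and 1 passed it newly. Rhox6 turned sign at near 0, with log2 fold changes of 0.0063 by DESeq2, 0.0019 with RLE factors, 0.0194 in the 8 libraries alone, 0.0092 with the block, 0.0041 without chromosomes 8 and Y, and -0.276 to 0.192 with a library left out. Tdpoz8 ranged from -0.82 to 0.205, the highest without TKO replicate 4. The cause was not tested. The 3-fold background limit was chosen after seeing the data and kept 2329 genes, 223 families and 17026 copies. Called genes and copies nearly always clear it, and families not called can clear it too. The limit therefore does not measure the part of background reads.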

Other observations

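Other lists in QKO against TKO EpiLCs were counted by the same test, to be read against the 9.97% of all genes that were higher and the 5.29% that were lower. Of 22 NODAL and TGF-beta pathway genes tested 2 were higher and 1 lower. Tgfb2, a ligand, rose from 0.335 to 0.945 CPM. Of 16 FGF and ERK feedback genes 1 was higher, the receptor Fgfr4 (1.54 to 4.99 CPM), and 2 were lower, among them the immediate early gene Fos (13.1 to 2.87 CPM). Of 31 imprinted genes 3 were higher and 3 lower. The zinc finger gene Peg3 rose from 176 to 439.8 CPM, and Phlda2, a limiter of placental growth, fell from 13.5 to 2.71 CPM. Of 25 cholesterol synthesis genes, a pathway in which LBR itself is a sterol reductase, 1 was higher and 3 lower. Their median log2 fold change was -0.395, against -0.0089 over all genes. An unadjusted edgeR p under 0.05 was found for 21 of the 25, and for 11409 of all 23399 genes tested.

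Of 8 keratin genes tested 1 was higher, Krt19 (1.83 to 6.905 CPM), and 2 were lower, among them Krt18 (21.2 to 7.33 CPM). Of 22 Hox genes 4 were higher and 2 lower, and of 26 clustered protocadherins 4 were higher and 0 lower. Of 13 mitochondrially encoded genes 5 were higher and 0 lower, among them mt-Nd2, a subunit of complex I, at 296, 264, 286 and 291 CPM in the TKO libraries and 1148, 605, 469 and 522 CPM in the QKO libraries. Without QKO replicate 1, whose mitochondrial share of 1.76% was the highest of the group, the 5 had log2 fold changes of 0.74 to 0.94, and without TKO replicate 1 that of mt-Nd4 was 0.93.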
